A study of Mus musculus with 8 samples.

Results

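Phyhip, B3gat1, Arhgap22, Mpzl2 and Sostdc1 are 5 of the 24972 genes in the deposited table, and they were picked for large differences from wild type (WT) in mouse embryonic fibroblasts that lack Zbp1. The values that picked them were the log2 changes in Zbp1-/- against WT and in Tfam+/-Zbp1-/- against WT, so those changes are given as descriptions with no test. All 5 genes passed the filter of a mean of at least 10 normalized counts over the libraries, as did 13267 genes in all. The question asked of each was whether its difference followed the Zbp1 genotype in every culture or came from 1 culture.

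The study sequenced total RNA from untreated primary fibroblasts of embryonic day 14 embryos, grown for 2 passages. There were 8 libraries of 4 genotypes with 2 libraries each: WT, Tfam+/- (1 allele of the mitochondrial DNA packaging factor Tfam lost), Zbp1-/- (both alleles of the nucleic acid sensor Zbp1 lost) and Tfam+/-Zbp1-/- (both losses combined). Nothing in the labels tells whether replicate libraries derive from different embryos, so the p-values measure the spread between these libraries, which may be technical. No strain is named for any genotype, and a strain difference cannot be told apart from the genotype. Below, libraries with and without Zbp1 are named by genotype.

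Library totals were 16752835 to 18303036 normalized counts. The 9 fibroblast markers summed to 333960 to 550400 in every library, so the labelled cell type was borne out. Tfam was at 278 to 424 normalized counts in the 4 libraries with 1 Tfam allele and at 471 to 675 in the others. Zbp1 was at 3.19 and 7.34 in WT and at 1.03 and 3.79 in Zbp1-/-, too low to check the Zbp1-/- label there. It was at 64.6 and 69.8 in Tfam+/- and at 0.862 and 2.69 in Tfam+/-Zbp1-/-. Across many genes Tfam+/- replicate 1 and Zbp1-/- replicate 2 differed from the other replicate of their genotype in the same direction. A term shared by these libraries was called in 8669 of 13267 genes. A term for the other replicates would be called in the same genes with its sign reversed. Which pair was shifted thus cannot be told, and naming the first pair the shifted libraries below is a choice. Estimates for Tfam+/- and Zbp1-/- with the term, and in the other 6 libraries, depend on that choice. For the 5 genes the fitted term ranged from -0.23 ± 0.25 (SE) for Sostdc1 to 0.56 ± 0.44 for Phyhip on the log2 scale. It was called for none (limma, adjusted p 0.096 to 0.87).

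The 5 proteins have unlike roles. PHYHIP binds phytanoyl-CoA hydroxylase, the peroxisomal enzyme that starts the breakdown of phytanic acid, and is best known from brain. B3GAT1 adds glucuronic acid to glycoproteins and so makes the precursor of the HNK-1 carbohydrate, a mark of neural crest cells and neurons. ARHGAP22 is a GTPase-activating protein that switches off the small GTPase RAC1, which drives the actin-rich protrusions of moving cells. MPZL2 is an immunoglobulin-domain adhesion protein known from epithelia and thymus. SOSTDC1 is a secreted protein that binds bone morphogenetic proteins (BMPs) and blocks them, and that modulates Wnt signalling at LRP co-receptors.

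The genes lie on 3 chromosomes of the mm10 assembly, and none is on chromosome 2 with Zbp1. Phyhip (chromosome 14, 70457517 to 70468826, plus strand) and Arhgap22 (chromosome 14, 33213994 to 33369936, plus strand) are 37.1 megabases apart. B3gat1 (chromosome 9, 26733723 to 26761350, plus strand) and Mpzl2 (chromosome 9, 45042344 to 45054043, plus strand) share a chromosome but are not neighbours. Sostdc1 is on chromosome 12 (36314169 to 36318452, plus strand). RefSeq promoter windows on GRCm38.p6 were matched for 2 of the 5 genes, Arhgap22 and B3gat1, which are shown because they moved in opposite directions without Zbp1. The lines give the bases before a start site, 5′ to 3′ on the plus strand, with CG dinucleotides in capitals.
Arhgap22, chr14:33216573-33216822: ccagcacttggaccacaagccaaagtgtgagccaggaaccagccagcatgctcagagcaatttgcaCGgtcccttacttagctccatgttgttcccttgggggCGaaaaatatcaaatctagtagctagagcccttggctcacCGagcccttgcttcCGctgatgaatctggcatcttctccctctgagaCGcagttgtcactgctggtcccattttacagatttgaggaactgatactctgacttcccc
B3gat1, chr9:26751312-26751504: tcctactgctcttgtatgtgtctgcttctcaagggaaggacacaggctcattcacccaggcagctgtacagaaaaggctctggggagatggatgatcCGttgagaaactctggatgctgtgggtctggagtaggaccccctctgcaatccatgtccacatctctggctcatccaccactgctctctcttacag

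Both start sites lie inside their gene, 2829 bases after the outer start of Arhgap22 and 17839 bases after that of B3gat1. The 250-base window of B3gat1 is printed only up to an annotated exon, 193 bases. The Arhgap22 window held 5 CG dinucleotides and the full B3gat1 window 2, against a median of 6 (quartiles 2 and 16) over 32851 windows of that length. Neither window held the core of the interferon-stimulated response element on either strand, which 2.98% of all windows did. TATAAA (12.4% of windows), GGGCGG (32.7%), CCAAT (33.8%) and CACGTG (6.02%) were also not in these letters on either strand. Whether the transcripts measured here begin at these sites is not known from the table.

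**Figure D1:**
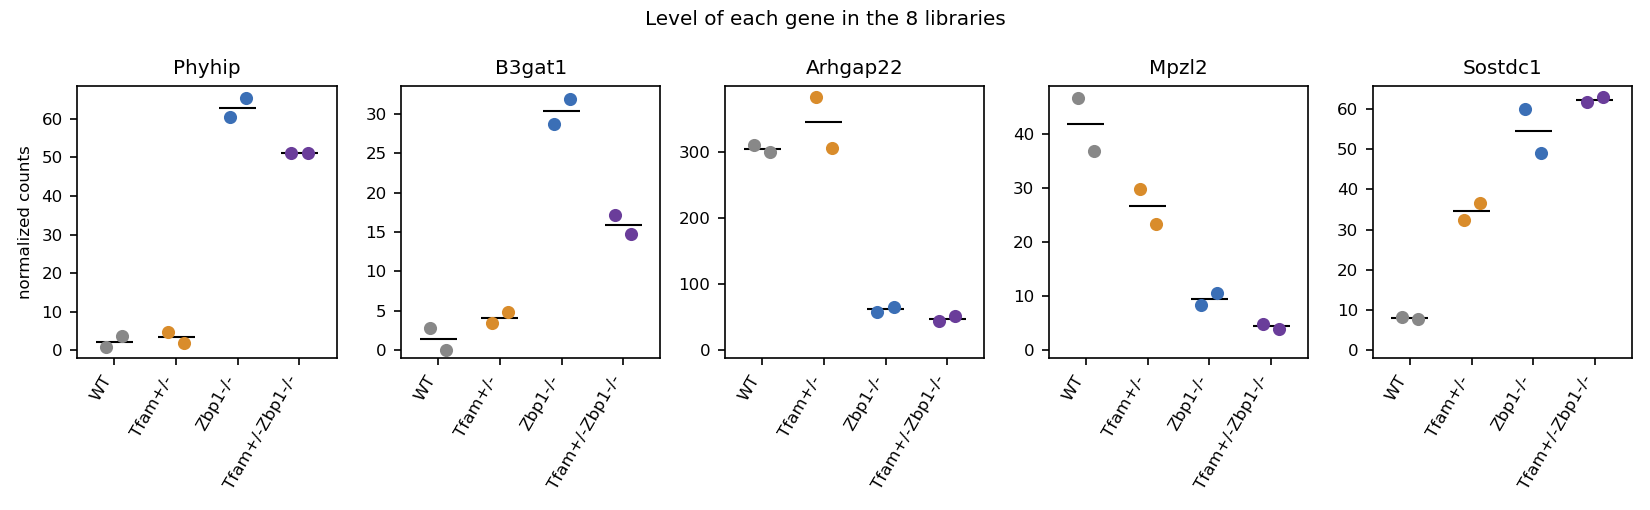
Normalized counts (vertical axis, separate scale per gene) of the 5 genes in the 8 libraries by genotype; points are libraries and lines are means of 2. In each gene the 4 Zbp1-/- libraries lie on 1 side of the other 4, and Sostdc1 is also higher in both Tfam+/- libraries than in WT.

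Phyhip had 0.953 and 3.62 normalized counts in the WT libraries and 4.83 and 1.92 in Tfam+/-. In Zbp1-/- it was at 60.4 and 65.3, and in Tfam+/-Zbp1-/- at 51.2 in each library. The 4 libraries without Zbp1 were all high and the 4 with Zbp1 all near the lowest values the table holds, with no overlap. The low levels leave little precision on the size of the change: the most frequent low value was 0.932 to 1.1 normalized counts per library and stood in 330 to 406 genes, so the 4 low libraries lie within a few such steps of 0. By mean level the order was Zbp1-/- (62.9 ± 3.51, SD, n = 2), Tfam+/-Zbp1-/- (51.2 ± 0.0229), Tfam+/- (3.38 ± 2.06) and WT (2.28 ± 1.88), and the last pair overlapped. The log2 change, taken on log2(normalized count + 1) and so understated for low genes, was 4.41 ± 0.50 (SE) in Zbp1-/- against WT and 4.12 ± 0.50 in Tfam+/-Zbp1-/- against WT. Both are selected values.

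B3gat1 was at 2.88 and 0 normalized counts in WT and at 3.46 and 4.85 in Tfam+/-. It was at 28.7 and 31.9 in Zbp1-/- and at 17.2 and 14.7 in Tfam+/-Zbp1-/-. All 4 libraries without Zbp1 were again above all 4 others, and those with the added Tfam loss were the lower pair. The means were 30.3 ± 2.28 (SD, n = 2) in Zbp1-/-, 15.9 ± 1.74 in Tfam+/-Zbp1-/-, 4.16 ± 0.984 in Tfam+/- and 1.44 ± 2.04 in WT, and no neighbouring genotypes in this order overlapped. On the log2 scale Tfam+/-Zbp1-/- minus Zbp1-/- was -0.89 ± 0.63 (SE), a difference between selected groups and not tested. The selected log2 changes were 3.99 ± 0.63 in Zbp1-/- against WT and 3.10 ± 0.63 in Tfam+/-Zbp1-/- against WT. They rest partly on the WT library at 0: they were 3.01 and 2.12 without WT replicate 2, and 4.97 and 4.08 without WT replicate 1.

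Arhgap22 moved the other way and from a higher level. The normalized counts were 310 and 299 for WT and 382 and 306 for Tfam+/-. They were 58.6 and 66.1 for Zbp1-/- and 44.9 and 51.2 for Tfam+/-Zbp1-/-. The highest library without Zbp1 was 4.51 times below the lowest library with it. WT (304 ± 7.85, SD, n = 2) and Tfam+/- (344 ± 53.3) overlapped, while Tfam+/-Zbp1-/- (48.0 ± 4.45) lay just under Zbp1-/- (62.3 ± 5.36). The selected log2 changes against WT were -2.27 ± 0.16 (SE) in Zbp1-/- and -2.64 ± 0.16 in Tfam+/-Zbp1-/-. Leaving out any 1 library moved them only between -2.36 and -2.18 and between -2.73 and -2.55.

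Mpzl2 stepped down by mean over all 4 genotypes, though the step from WT to Tfam+/- was not called (limma, adjusted p 0.56). Its normalized counts were 46.8 and 36.9 for WT, then 29.9 and 23.4 for Tfam+/-. Zbp1-/- followed with 8.36 and 10.6, and Tfam+/-Zbp1-/- with 4.88 and 4.05. No neighbouring genotypes in that order overlapped, at means of 41.8 ± 6.98 (SD, n = 2), 26.6 ± 4.62, 9.50 ± 1.61 and 4.47 ± 0.588. The selected log2 changes against WT were -2.03 ± 0.29 (SE) in Zbp1-/- and -2.96 ± 0.29 in Tfam+/-Zbp1-/-, and the step from Zbp1-/- to Tfam+/-Zbp1-/- was -0.94 ± 0.29, also between selected groups.

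Sostdc1 did not divide by Zbp1 genotype alone. It had 8.18 and 7.80 normalized counts in WT but 32.5 and 36.6 in Tfam+/-, where Zbp1 is present. It had 59.9 and 49.0 for Zbp1-/- and 61.6 and 62.9 for Tfam+/-Zbp1-/-. The 4 libraries without Zbp1 were the highest, but the lowest of them was only 1.34 times above the highest Tfam+/- library. Zbp1-/- (54.4 ± 7.73, SD, n = 2) and Tfam+/-Zbp1-/- (62.2 ± 0.946) did not overlap but differed by 0.20 ± 0.21 (SE) on the log2 scale, within the error of the fit. The selected log2 changes against WT were 2.62 ± 0.21 in Zbp1-/- and 2.81 ± 0.21 in Tfam+/-Zbp1-/-.

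In all 5 genes the 4 libraries without Zbp1 did not overlap the other 4. Among all tested genes 12.3% had the 4 all above and 2.45% all below, 14.8% in either direction, and picking the genes for large changes favours both this and a wide gap, so the gaps and their ranks are descriptions. The log2 distance from the nearest library without Zbp1 to the nearest library with it was 3.16 for Phyhip and 2.16 for Arhgap22, ranks 1 and 2 of 13267 genes. It was 1.43 for B3gat1 (rank 5), 1.07 for Mpzl2 (rank 25) and 0.41 for Sostdc1 (rank 231). For Phyhip, Arhgap22, Mpzl2 and Sostdc1 the gap was wider than the widest log2 difference between replicates of 1 genotype, 1.24, 0.32, 0.34 and 0.29 in that order. For B3gat1 the 2 WT libraries differed by 1.96, more than its gap.

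The Tfam+/- libraries were not used to pick the genes, but the libraries on the other side of each comparison with them were. Genes picked for extreme values there carry that choice into these comparisons, so the p-values of the 5 genes below are too small by an unknown amount and describe these libraries. In Tfam+/-Zbp1-/- against Tfam+/- (loss of Zbp1 on top of a missing Tfam allele), 3 of the 5 genes were called at an adjusted p under 0.05 and the other 2 were shifted the same way as in Zbp1-/- against WT. Among all tested genes 5.64% were called in this comparison. Arhgap22 fell by 2.81 ± 0.16 (SE) on the log2 scale (limma, adjusted p 0.0013) and was called without any 1 of the 8 libraries (-2.97 to -2.65). Phyhip rose by 3.66 ± 0.50 (adjusted p 0.0097). Mpzl2 fell by 2.33 ± 0.29 (adjusted p 0.0073). Leaving out Tfam+/-Zbp1-/- replicate 1 ended the calls of Phyhip (3.66, limma adjusted p 0.10) and Mpzl2 (-2.44, adjusted p 0.073). Leaving out replicate 2 of that genotype did so as well (3.66, adjusted p 0.093, and -2.22, adjusted p 0.074).

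B3gat1 and Sostdc1 missed the threshold in that comparison. The log2 change of B3gat1 was 1.73 ± 0.63 (limma, adjusted p 0.18, 95% interval 0.23 to 3.22) and that of Sostdc1 was 0.83 ± 0.21 (adjusted p 0.070, interval 0.34 to 1.32). In both, every Tfam+/-Zbp1-/- library was above every Tfam+/- library. With the term for the 2 shifted libraries these were 1.67 ± 0.66 (adjusted p 0.046) and 0.72 ± 0.28 (adjusted p 0.041), and in the other 6 libraries 1.53 ± 0.73 (adjusted p 0.098) and 0.75 ± 0.31 (adjusted p 0.060). The term made both changes smaller and both SEs larger, while the prior degrees of freedom rose from 2.77 to 15.1. Over all genes the median log2 change was 0.14 in Tfam+/-Zbp1-/- against Tfam+/-, 0.11 in Zbp1-/- against WT and 0.12 in Tfam+/-Zbp1-/- against WT. Relative to all genes the rises are smaller by that much. With library scales reset by trimmed means (TMM) Sostdc1 was at 0.71 and B3gat1 at 1.62.

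**Figure D2:**
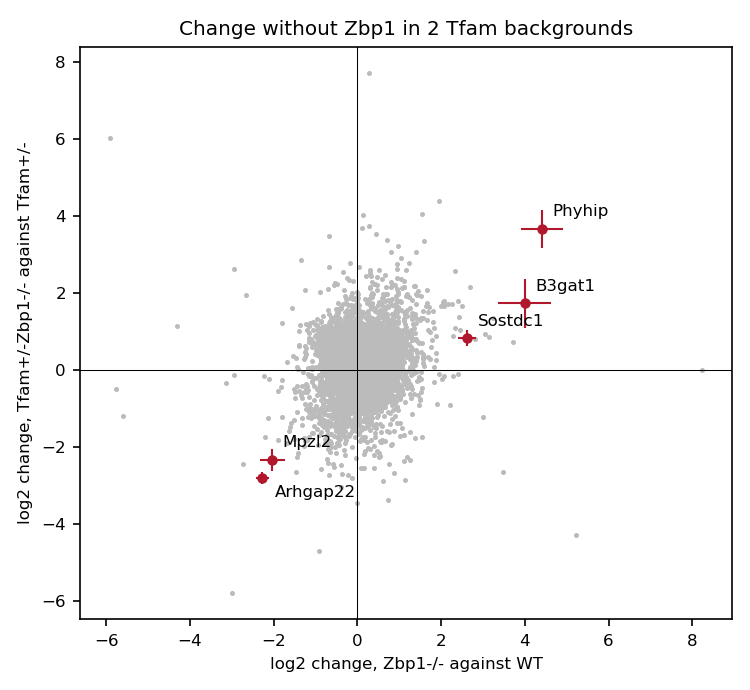
Log2 change without Zbp1 in WT cells (horizontal axis) against that in Tfam+/- cells (vertical axis) for all tested genes (grey) and the 5 genes (red, bars are SE); the axes share no library. Phyhip, at 4.41 and 3.66, and Arhgap22, at -2.27 and -2.81, changed alike on both axes, while Sostdc1 was at 2.62 and 0.83; the horizontal values were used to pick the genes.

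Tfam+/- against WT asked what these genes do when Zbp1 is present and 1 Tfam allele is lost. Sostdc1 was the only 1 of the 5 that was called, against 0.731% of all tested genes. It rose by 1.98 ± 0.21 (SE) on the log2 scale (limma, adjusted p 0.012), from 7.99 ± 0.269 to 34.6 ± 2.89 normalized counts (SD, n = 2). The rise kept its size, 1.90 to 2.07, without any 1 library, but the call was lost without WT replicate 1 (2.01, adjusted p 0.13) or replicate 2 (1.95, adjusted p 0.14), Tfam+/- replicate 2 (1.90, adjusted p 0.053), and Tfam+/-Zbp1-/- replicate 1 or replicate 2 (1.98, adjusted p 0.066 and 0.067). With the replicate number as a block the adjusted p was 0.058. With the term for the shifted libraries the rise was 2.10 ± 0.28 (limma, adjusted p 2.4e-05). Its SE was larger than in the main fit. The smaller adjusted p came with 15.1 in place of 2.77 prior degrees of freedom and 2069 in place of 97 genes called. It is not stronger evidence from Sostdc1 itself.

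For the other four this change missed the threshold, and its interval bounds what these libraries allow. Arhgap22 changed by 0.17 ± 0.16 (95% interval -0.22 to 0.56; limma, adjusted p 0.61), a bound well short of its fall without Zbp1. Phyhip changed by 0.46 ± 0.50 (interval -0.73 to 1.65, adjusted p 0.64), and the sign turned to -0.16 without WT replicate 1 and -0.04 without Tfam+/- replicate 1. Mpzl2 changed by -0.63 ± 0.29 (interval -1.32 to 0.06, adjusted p 0.56) and B3gat1 by 1.38 ± 0.63 (interval -0.12 to 2.87, adjusted p 0.56).

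The log2 change on losing Zbp1 in Tfam+/- cells minus that in WT cells was -1.79 ± 0.29 (SE) for Sostdc1 and -2.26 ± 0.89 for B3gat1, smaller rises in Tfam+/- cells. For Phyhip, Arhgap22 and Mpzl2 it was -0.75 ± 0.71, -0.54 ± 0.23 and -0.31 ± 0.41. These differences contain the selected change in Zbp1-/- against WT and are descriptions.

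Arhgap22 and the leukocyte transcripts in these cultures moved together. Of 7 leukocyte markers, 6 (Ptprc, Csf1r, Lyz2, C1qa, C1qb and Adgre1) were lower in all 4 libraries without Zbp1 than in any other, as were 2.45% of all tested genes, and Cd68 overlapped. Their sum was 4654 and 4675 normalized counts for WT and 5388 and 6261 for Tfam+/-. It was 2804 and 2903 for Zbp1-/- and 2334 and 2340 for Tfam+/-Zbp1-/-, by mean the same order of genotypes as Arhgap22. No marker of the 7 was at 0 in any library. In Tfam+/-Zbp1-/- against Tfam+/- 6 of the 7 fell (limma, adjusted p under 0.05; 2.32% of all tested genes fell) with a median of -1.25, and in Zbp1-/- against WT 1 fell (0.166% of all tested genes), with a median of -0.53. The sum was 2.02 times lower in the libraries without Zbp1 (2595 ± 301, SD, n = 4, against 5245 ± 759), and Arhgap22 was 5.87 times lower (55.2 ± 9.19 against 324 ± 38.7). In bulk RNA, fewer cells of a type and less RNA per cell cannot be told apart, and the part of leukocytes in the fall of Arhgap22 was not tested.

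**Figure D3:**
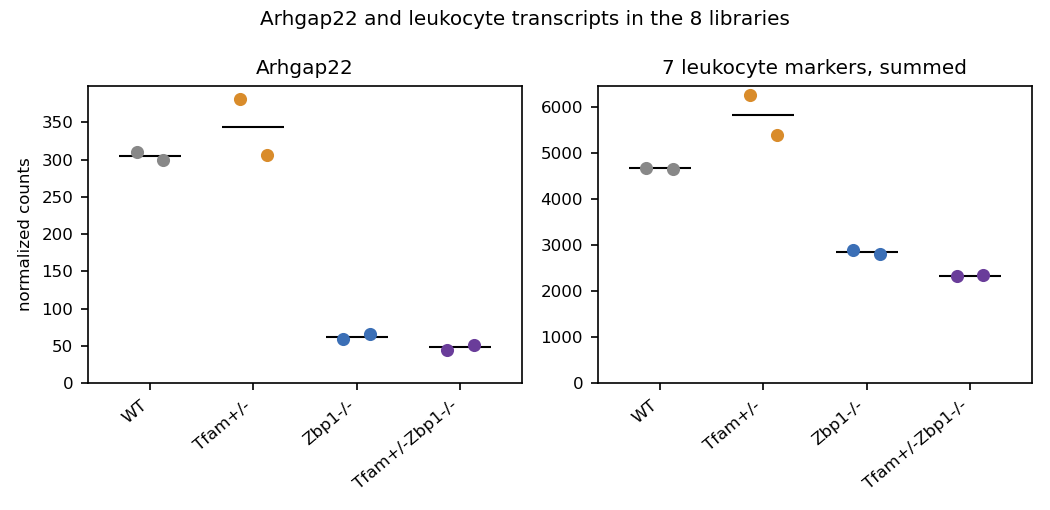
Normalized counts of Arhgap22 (left) and the sum of 7 leukocyte markers (right) in the 8 libraries by genotype; points are libraries and lines are means of 2. By mean both were lowest in Tfam+/-Zbp1-/- and highest in Tfam+/-, and Arhgap22 fell by the larger factor.

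Markers of other cell types were read the same way. Of the 9 fibroblast markers, 4 (Col3a1, Pdgfra, Dcn and Lum) were above in all 4 libraries without Zbp1, as Phyhip, B3gat1 and Sostdc1 were, against 12.3% of all tested genes. Lum, a matrix proteoglycan, was at 1770 to 3025 normalized counts without Zbp1 and 550 to 1170 with it. Of 5 endothelial markers 1, Tek, was above (75.9 to 89.4 against 25.1 to 65.4), where 12.3% of all tested genes were. Kdr overlapped and leaned the other way, at 148 to 225 without Zbp1 and 213 to 332 with it. Pecam1, Cdh5 and Tie1 were under 10 in every library. The neuron markers, of interest because Phyhip and B3gat1 are known from brain, summed to 769 to 825 in WT, 829 to 1089 in Tfam+/-, 761 to 1050 in Zbp1-/- and 576 to 618 in Tfam+/-Zbp1-/-. Elavl3, Snap25 and Rbfox3 were under 10 normalized counts in every library. Of the 7 markers 2, Elavl4 and Syn1, were below in all 4 libraries without Zbp1 (2.45% of all tested genes were). Elavl4 was at 13.2 to 18.6 without Zbp1 and 21 to 30.3 with it, and Syn1 at 19.5 to 43.3 and 49.5 to 65.6. Syt1 overlapped, at 25 to 41.1 without Zbp1 and 14.1 to 29.7 with it. The Schwann cell and neural crest markers summed to 633 to 727 in Zbp1-/- but to 218 to 251 in Tfam+/-Zbp1-/-, against 297 to 348 in WT and 267 to 294 in Tfam+/-. Of these 7 markers 1, S100b, was above in all 4 libraries without Zbp1, a share near the 12.3% of all tested genes. The 7 epithelial markers summed to 269 to 290 in WT, 339 to 508 in Tfam+/-, 296 to 385 in Zbp1-/- and 193 in both Tfam+/-Zbp1-/- libraries, with Epcam, Cdh1 and Krt5 under 10 throughout. The epithelial sum did not follow the stepwise fall of the Mpzl2 means. Of the 7 markers Krt18 was lower in all 4 libraries without Zbp1 (57 to 124) than in the others (150 to 230), as were 2.45% of all tested genes. Epcam, too low to be tested, was higher (2.99 to 5.11 against 0 to 1.07), a share near the 12.3% of all tested genes. The other 5 overlapped, among them Krt8 (55.1 to 128 without Zbp1 and 66.9 to 169 with it). The parts of these cell types in the results were not tested.

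Partners and relatives of the 5 genes were measured too. Phyh, the enzyme that PHYHIP binds, was at 205 to 279 normalized counts with Zbp1 and 256 to 350 without, and rose in Tfam+/-Zbp1-/- against Tfam+/- (log2 0.62; limma, adjusted p 0.044). It was at -0.03 in Zbp1-/- against WT (adjusted p 0.88), where Phyhip had its largest value. Phyhipl, the closest relative of Phyhip, did not exceed 5.38 in any library. Of 16 tested genes of phytanic acid breakdown and peroxisome import, Phyh was the 1 called in Tfam+/-Zbp1-/- against Tfam+/-, a share near the 5.64% of all genes, with a list median of 0.23 against 0.14 for all genes.

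Among genes of HNK-1 synthesis, B3gat2 did not exceed 2.10 normalized counts in any library. Chst10, which adds the sulfate that completes HNK-1, was at 44.8 to 72.2 with Zbp1 and 61.9 to 81.5 without (log2 0.48 in Zbp1-/- against WT; limma, adjusted p 0.30). B3gat3, which builds the linker of proteoglycans, was at 0.39 (adjusted p 0.35). Of the proteins that can carry HNK-1, L1cam, a neural adhesion molecule, was at 90.4 and 103 normalized counts for WT, 105 and 98.9 for Tfam+/-, 197 and 178 for Zbp1-/- and 221 and 214 for Tfam+/-Zbp1-/-. Its 4 libraries without Zbp1 were all above the others, as for B3gat1, and it rose in both comparisons (log2 0.95, adjusted p 0.037, in Zbp1-/- against WT and 1.09, adjusted p 0.0078, in Tfam+/-Zbp1-/- against Tfam+/-). In the latter Ncam1 fell by 0.48 on the log2 scale (adjusted p 0.049). These were the calls among 10 tested genes, 1 and 2, where 1.06% and 5.64% of all genes were called. The list medians were 0.32 and 0.11, against 0.11 and 0.14 for all genes.

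Arhgap25, a close relative of Arhgap22 known from leukocytes, fell by 1.26 ± 0.24 in Tfam+/-Zbp1-/- against Tfam+/- (SE, log2; limma, adjusted p 0.029), from 35.9 and 39.3 normalized counts in Tfam+/- to 14.3 and 15.9. It was at 23.3 and 24.3 in WT and 17.3 and 22.7 in Zbp1-/-, a log2 change of -0.25 (limma, adjusted p 0.52). Against WT its log2 change was 0.64 in Tfam+/- (adjusted p 0.49) and -0.62 in Tfam+/-Zbp1-/- (adjusted p 0.34). Arhgap24, the other close relative, was at 618 to 620 with Zbp1 and 701 to 788 without (log2 0.18 in Tfam+/-Zbp1-/- against Tfam+/-, limma adjusted p 0.32).

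Among the adhesion genes examined beside Mpzl2, 15 of which were tested, limma called 1 in Zbp1-/- against WT, Cadm3 (log2 1.51 ± 0.19, adjusted p 0.026), where 1.06% of all genes were called. Mpzl3, whose gene lies next to Mpzl2, was at 70.8 to 111 normalized counts with Zbp1 and 58.6 to 98 without, and its log2 change was 0.19 in Tfam+/-Zbp1-/- against Tfam+/- (adjusted p 0.69). Mpzl1 was at 909 to 1117 with Zbp1 and 1072 to 1111 without.

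The BMP and Wnt genes around Sostdc1 were compared in Tfam+/-Zbp1-/- against Tfam+/-, and fewer than 1 in 2 of each list passed the test. Of 13 tested BMP ligands and receptors 4 rose and 1 fell, and of 11 BMP target genes 4 rose. Of 10 Wnt co-receptors and inhibitors 4 rose, and of 10 Wnt target genes 3 rose. In all tested genes 3.32% rose and 2.32% fell. The list medians were 0.67, 0.71, 0.40 and 0.87 against 0.14 for all genes. The median of the ligands and receptors moved to 0.15 with the term for the shifted libraries and 0.17 in the other 6 libraries. Leaving out Tfam+/- replicate 2 moved it up, to 1.17, so it depends on which Tfam+/- library is used. In Zbp1-/- against WT the medians of these lists were -0.10, 0.26, 0.43 and 0.94 against 0.11 for all genes. That of the ligands and receptors was below all genes. In Tfam+/-Zbp1-/- against WT they were -0.00, 0.40, 0.16 and 0.37 against 0.12. With the term, under which 6049 of 13267 genes were called, 6 and 2 of the ligands and receptors, 8 and 0 of the BMP targets, 6 and 1 of the Wnt inhibitors and 6 and 0 of the Wnt targets were called higher and lower. Without either Tfam+/-Zbp1-/- library the calls of the BMP and Wnt targets were lost, with medians of 0.71 and 0.73 for the BMP targets and 1.03 and 0.72 for the Wnt targets.

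**Figure D4:**
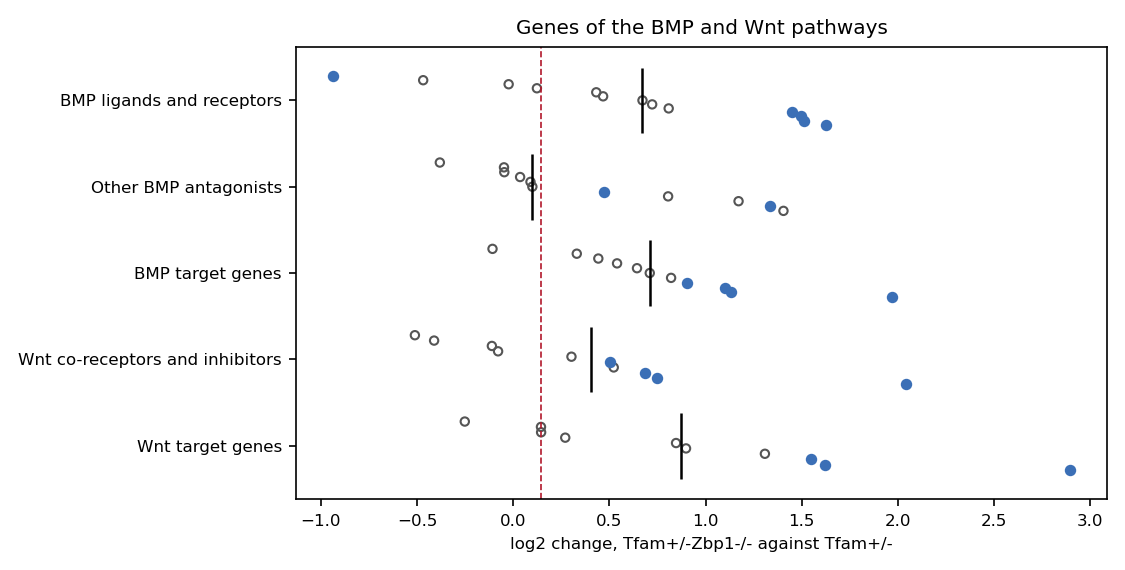
Log2 change in Tfam+/-Zbp1-/- against Tfam+/- (horizontal axis) of each tested gene in 5 lists of the BMP and Wnt pathways; filled points were called, black lines are list medians and the dashed red line is the median of all genes, 0.14. In 4 of the 5 lists the median lies to the right of that line.

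Bmp4, a ligand, was at 377 and 358 normalized counts in Tfam+/- and 1081 and 1192 in Tfam+/-Zbp1-/- (log2 1.63 ± 0.11; limma, adjusted p 0.0017). It was at 579 and 556 in WT and 1103 and 1106 in Zbp1-/- (log2 0.96 ± 0.11, adjusted p 0.018), so all 4 libraries without Zbp1 were above the others. Unlike Sostdc1 it was lower in both Tfam+/- libraries than in WT. Msx1, a transcription factor induced by BMPs, rose from 236 and 154 in Tfam+/- to 742 and 757 (log2 1.97 ± 0.21, adjusted p 0.0048). The BMP targets Id2, Smad6 and Smad9 rose by 1.13, 1.10 and 0.90, the ligands Bmp2, Bmp3 and Gdf5 by 1.5, 1.51 and 1.45, and Gdf6 fell by 0.94. Id2 and Smad9 were also lower in both Tfam+/- libraries (341 and 489, 60.8 and 75.7) than in WT (750 and 732, 107 and 97.6). In Zbp1-/- they were at 889 and 666 and at 122 and 103, overlapping WT. Smad6 was at 188 and 140 in Tfam+/-, 208 and 212 in WT and 300 and 295 in Zbp1-/-. In Zbp1-/- against WT limma called 0 of the 11 BMP targets.

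Among other BMP antagonists Nog rose by 1.33 and Fstl1 by 0.47 in this comparison, the calls of 11 tested genes (3.32% of all genes rose), with a list median of 0.10 against 0.14 for all genes, and Sost, the closest relative of Sostdc1, was listed at 0 in all 8 libraries. Sfrp2, a secreted Wnt inhibitor, was at 169 and 170 normalized counts in Tfam+/- and 700 and 705 in Tfam+/-Zbp1-/- (log2 2.04 ± 0.11; limma, adjusted p 9.0e-04), and at 194 and 205 in WT and 550 and 539 in Zbp1-/- (1.44 ± 0.11, adjusted p 0.0076). The Wnt targets Axin2, Lgr5 and Notum rose by 1.55, 1.62 and 2.90, and Lrp4, a receptor that binds SOSTDC1, rose by 0.69 (adjusted p 0.045). The change of Notum (SE 0.57) starts from a low level, 3.46 and 4.86 normalized counts in Tfam+/-, against 37.4 and 36.8 in Tfam+/-Zbp1-/-. Its WT libraries, at 14.5 and 4.62, overlapped those of Zbp1-/-, at 12 and 27.6. In Zbp1-/- against WT the calls were Bmp4, Sfrp1 (1.03), Sfrp2, Dkk3 (0.55), Nkd2 (0.95) and Lgr5 (1.72). In Tfam+/- against WT, where Sostdc1 rose, limma called 0 of the 120 pathway genes tested over all lists, with 17 at an unadjusted p under 0.05 (14.2%, against 8.74% of all genes).

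Genes near the 5 on the chromosome were also examined. Within 1 megabase of their starts 84 other genes were tested. Of these 12 were called in Tfam+/-Zbp1-/- against Tfam+/- (14.3%, against 5.64% of all tested genes) and 4 in Zbp1-/- against WT (4.76%, against 1.06%). In Tfam+/-Zbp1-/- against WT 7 were called (8.33%, against 1.38%). In Tfam+/- against WT limma called 0, with 11 at an unadjusted p under 0.05 (13.1%, against 8.74% of all genes). Called neighbours moved in both directions, and neighbouring genes are not independent of each other.

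**Figure D5:**
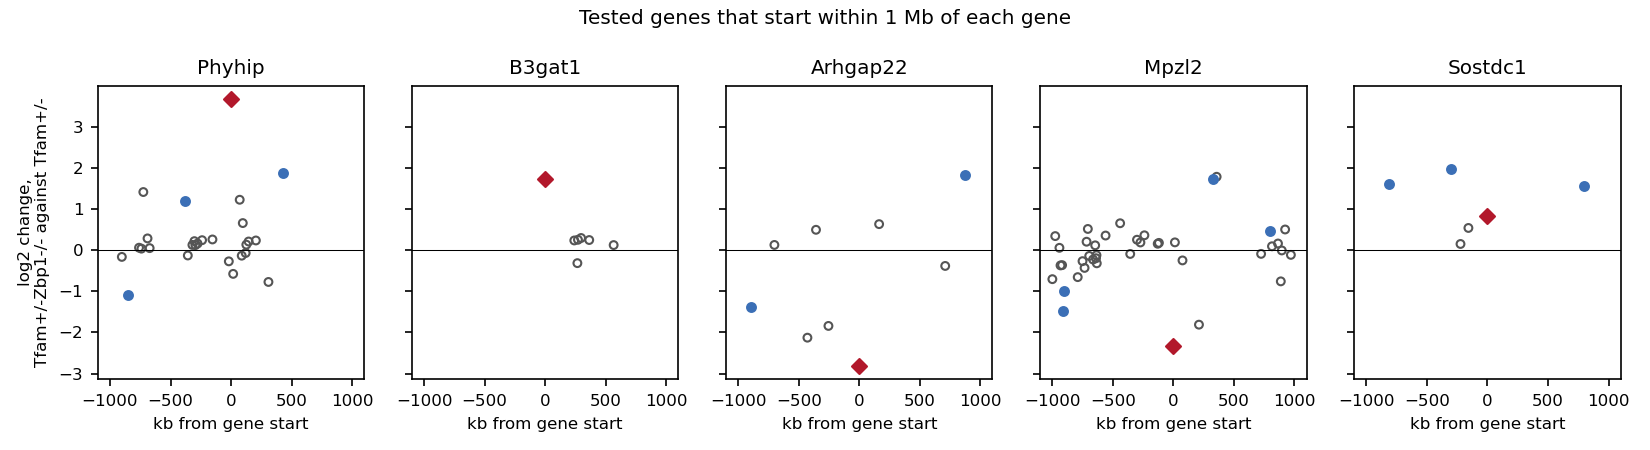
Log2 change in Tfam+/-Zbp1-/- against Tfam+/- (vertical axis) of tested genes by distance of their start from that of each of the 5 genes (horizontal axis, kb); red diamonds are the 5 genes, filled blue points are called neighbours and open points are the others. Of the 84 neighbours 12 were called, and the genes nearest to Phyhip and Mpzl2 on either side were not.

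Beside Phyhip, the nearest tested genes Polr3d and Bmp1 had log2 changes of -0.27 and -0.58 in Tfam+/-Zbp1-/- against Tfam+/- (limma, adjusted p 0.41 and 0.13). Gfra2, a receptor for neurturin that starts 433 kb away, was at 22.1 to 39.0 normalized counts with Zbp1 and 81.0 to 97.7 without. It rose without Zbp1 in both Tfam backgrounds (1.24 ± 0.18, adjusted p 0.036, and 1.88 ± 0.18, adjusted p 0.0037). Egr3 rose by 1.18 in Tfam+/-Zbp1-/- against Tfam+/-, and Loxl2 fell by 1.09.

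Beside Arhgap22, Wdfy4, a gene of antigen-presenting cells that ends just before it, was at 48.9 to 69.8 normalized counts with Zbp1 and 11.1 to 28.8 without. Its log2 change in Tfam+/-Zbp1-/- against Tfam+/- was -1.84 and did not pass the test (limma, adjusted p 0.076). Mapk8, on the other side, was at 0.63 (adjusted p 0.33). Anxa8, 872 kb away, moved opposite to Arhgap22, from 776 and 719 normalized counts in WT and 787 and 658 in Tfam+/- to 1661 and 2042 for Zbp1-/- and 2538 and 2530 for Tfam+/-Zbp1-/-. Ogdhl fell by 1.38 in Tfam+/-Zbp1-/- against Tfam+/-.

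Around Mpzl2, the nearest genes Ube4a and Mpzl3 were at 0.17 and 0.19 in Tfam+/-Zbp1-/- against Tfam+/- (limma, adjusted p 0.40 and 0.69). Fxyd6, a regulator of the sodium pump that starts 327 kb away, was at 110 to 144 normalized counts with Zbp1 and 386 to 746 without, a rise of 1.72 ± 0.19 (adjusted p 0.0048). Its log2 gap between the libraries with and without Zbp1, 1.42, ranked next after that of B3gat1. Cbl, a ubiquitin ligase, was at 694 to 861 with Zbp1 and 336 to 399 without, a fall of 1.00 ± 0.14 (adjusted p 0.011). Mcam fell by 1.47 and Bace1 rose by 0.45.

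None of the 6 tested genes within 1 megabase of B3gat1 was called in any of these 4 comparisons, and in Tfam+/-Zbp1-/- against Tfam+/- they lay between -0.32 and 0.29. Of the nearest tested genes on either side, Acad8 was at 0.23 (limma, adjusted p 0.29), and Eepd1, which starts outside that window, was at 0.95 (adjusted p 0.038). Of 5 genes around Sostdc1, Ahr, Tspan13 and Meox2 rose in Tfam+/-Zbp1-/- against Tfam+/- by 1.59, 1.97 and 1.55. All 3 were lower in Tfam+/- than in WT, with normalized counts of 40.5 and 51.7 against 85.8 and 84.9 for Tspan13, whereas Sostdc1 was higher there. Ankmy2, the nearest tested gene before Sostdc1 and on the same side of it as Ahr and Tspan13, was at 0.54 (limma, adjusted p 0.073).

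The genes whose pattern over the 8 libraries was most like each of the 5 were found by Pearson's r of log2 values, as a description over libraries that share genotypes. For Arhgap22 they were Pkp2 (r = 0.9927), Lyz2 (0.9900) and Ankrd1 (0.9887). Lyz2, the lysozyme of macrophages, was at 2844 to 3445 normalized counts with Zbp1 and 1375 to 1625 without, and Ankrd1, known from muscle and as a target of YAP, at 903 to 1218 and 245 to 346. For Phyhip they were Ptpn14 (0.9879), Rsrp1 (0.9874) and Fndc10 (0.9856), whose mean log2 differences between the libraries without and with Zbp1, 0.24, 0.30 and 0.53, were far smaller than that of Phyhip, 4.03. For B3gat1 they were Coq10a (0.9814), Gm15246 (0.9782) and Vps39 (0.9751), also with small differences of 0.27, 0.53 and 0.21. For Mpzl2 they were Stbd1 (0.9856), Exosc9 (0.9576) and Adgra1 (0.9528), which were lower by -0.66, -0.46 and -0.87.

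For Sostdc1 the nearest pattern was that of Xlr3b (r = 0.9917), an X-linked gene of a family expressed in germ cells and lymphocytes. Xlr3b was at 8.14 and 10.7 normalized counts for WT, 44.2 and 54.6 for Tfam+/-, 113 and 72.5 for Zbp1-/- and 81.7 and 97.1 for Tfam+/-Zbp1-/-. As for Sostdc1, the Tfam+/- libraries stood between WT and the libraries without Zbp1. Drosha (0.9572) and Adamts16 (0.9565) followed.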

How the data were processed

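The authors deposited normalized counts per gene, a signal that is never negative and not whole. Reads were aligned with STAR to mm10 with RefSeq genes in BaseSpace, per the series' design text. STAR 2.6.1a and Salmon are listed in the submitters' processing notes, and mm10 is the build given there. How reads were counted and scaled, and whether by strand, is not stated in any source read for this work, so genes that overlap others are uncertain and read depth is unknown.

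Tests used log2(normalized count + 1) for genes with a mean of at least 10. limma 3.58.1 in R 4.3.3 (lmFit, eBayes with trend) fitted the 4 genotypes together without covariates, with 4 residual and 2.77 prior degrees of freedom. Tests were two-sided, with Benjamini-Hochberg adjustment over 13267 genes, and genes were called under 0.05. The fitting script was tested on simulated data. With 2 libraries a group, exact permutation p-values start at 0.333.

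The 5 genes, the gene lists, the alternatives and the 2 shifted libraries were chosen with earlier results of these data known. Named genes were the 5, Tfam and Zbp1, relatives and partners, the 3 most alike by r, the nearest tested genes, called neighbours within 1 megabase, and called list genes (at most 4 per list and comparison, by size; Gdf6 and the marker genes, outside this rule, were named after their values were seen). A total of 24407 names (97.7%) matched RefSeq symbols of assembly GRCm38.p6 (mm10). Replicate numbers were not taken as pairs. The result of 1 gene list and some single genes are not reported here.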

Additional observations from a re-analysis of the deposited data

How the results depend on the processing

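The log2 changes of the 5 genes kept their direction in Tfam+/-Zbp1-/- against Tfam+/- under every alternative run. Without 1 library the changes ranged from 3.16 to 4.16 for Phyhip, -2.50 to -2.16 for Mpzl2, -2.97 to -2.65 for Arhgap22, 1.53 to 1.92 for B3gat1 and 0.75 to 0.91 for Sostdc1. A call was gained for B3gat1 (1.67) and Sostdc1 (0.72) with the shared term, though both changes were smaller and both SEs larger than in the main fit. A call was also gained for Sostdc1 (0.83, limma adjusted p 0.022) with a prior without trend. In Tfam+/- against WT, Sostdc1 (1.98; 1.90 to 2.07 without 1 library) lost its call with the replicate number as a block (adjusted p 0.058) and in a fit of only these genotypes (adjusted p 0.13), and Phyhip turned to -0.04 in the 6 libraries (-0.16 to 1.08 without 1 library). Phyhip, B3gat1, Mpzl2 and Sostdc1 have no value at a mean of at least 50, which they do not reach. With pseudocounts of 5 and 0.1 the change in Zbp1-/- against WT was 3.24 and 4.99 for Phyhip and 2.49 and 5.80 for B3gat1.

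Counts over all genes were less stable. In the order Tfam+/-Zbp1-/- against Tfam+/-, Tfam+/- against WT, Zbp1-/- against WT and Tfam+/-Zbp1-/- against WT, limma called 748, 97, 141 and 183 genes. The counts were 6049, 2069, 4717 and 5634 once a shared term was fitted, 5779, 2049, 4548 and 5946 for the 6 libraries, and 359, 28, 1 and 5935 in fits of only the genotypes compared. Without 1 library they ranged over 12 to 874, 12 to 98, 0 to 223 and 0 to 256. The 0 counts came without either WT library in Zbp1-/- against WT (1103 and 1051 genes at an unadjusted p under 0.05), and without any 1 of the 4 libraries compared in Tfam+/-Zbp1-/- against WT (855, 872, 874 and 868). Without the filter they were 87 and 117 in the last 2 comparisons, and TMM rescaling gave 83 in Zbp1-/- against WT. The cause was not tested. With the replicate block the counts were 351, 28, 1 and 8. Across genes, the difference between replicates 1 and 2 correlated between the compared genotypes at r of 0.06, -0.06, -0.01 and -0.37. Between Tfam+/- and Zbp1-/- it was -0.7. No r was clearly above 0, but such values cannot tell whether replicates of the same number were handled together. With the numbers of Tfam+/-Zbp1-/- crossed, chosen after seeing the data, the last count was 8. Of the 24 list calls and 12 neighbour calls in Tfam+/-Zbp1-/- against Tfam+/-, 24 and 12 kept their call and sign with the shared term, 18 and 11 after rescaling, 6 and 8 with the block, and 1 to 23 and 0 to 11 without 1 library. Of the 8 list calls and 4 neighbour calls in Zbp1-/- against WT, 0 and 0 remained without either WT library.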
